A study of Mus musculus with 3 samples.

Results

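The genes described here encode 10 subunits of the BAF chromatin remodelling complexes: Smarca4, Smarcb1, Smarcc1, Smarcc2, Smarcd1, Smarce1, Arid1a, Actl6a, Dpf2 and Brd9. They were chosen by name, and their reads were those at listed poly(A) sites on the strand of the gene, from its start to 1000 bases past its end in the GENCODE M21 annotation of mm10. These are 10 of 22330 autosomal genes with a read and hold 126 of 171741 autosomal sites, with 57048 reads in all. The data are PAS-seq libraries, which read the 3′ ends of polyadenylated RNA. They come from F121-9, a hybrid ES cell line of the CAST and 129 strains, untreated as far as the labels say. The line formed 1 group of 3 libraries, labelled biological replicates 1, 2 and 3, all at passage 14 and from 500 ng of RNA. The replicates share 1 donor and the labels name no separate cultures, so their spread may be partly technical. No conditions were compared, and every comparison is between genes or sites of this line.

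BAF complexes, also called SWI/SNF, use ATP to slide or evict nucleosomes and so open enhancers and promoters. Many subunits come from gene families whose paralogs take the same place in the complex, and the choice of paralog differs between cell types. In mouse ES cells the form known as esBAF is required for self-renewal and pluripotency, and during neuronal differentiation Actl6a, Phf10 and Dpf2 give way to Actl6b, Dpf1 and Dpf3. Canonical BAF carries an ARID1 subunit and a DPF subunit, PBAF carries Arid2, Pbrm1, Brd7 and Phf10, and the non-canonical complex carries Brd9. The 3′ end of an mRNA is cut downstream of a signal, most often AATAAA, and the cut fixes which stretch of 3′ untranslated region (UTR) the mRNA keeps.

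The sequences that precede the most used site of each gene show how these mRNAs ended. Each is the 30 bases of mm10 up to the site, with the signal in capitals. The window of Arid1a was shifted to end 1 base before the site, so that it holds the signal.
Smarca4 main (chr9:21703337-21703366, plus strand): gacagtAATAAAttaaagcaatgacaagcc
Smarcb1 main (chr10:75896775-75896804, minus strand): aacactttttaAATAAAaagtaccatgttc
Smarcc1 main (chr9:110240142-110240171, plus strand): ttgcattgAATAAAtgaaataccatttatg
Smarcc2 main (chr10:128490138-128490167, plus strand): cctttttttttTATAAAttaatttgctttc
Smarcd1 main (chr15:99713961-99713990, plus strand): cccagttttAATAAAagacttctaaagagc
Smarce1 main (chr11:99210016-99210045, minus strand): taaaacttttttaAATGAAaaaaaaatgtg
Arid1a main (chr4:133679004-133679033, minus strand): AATAAAtgtacattaaatcttggtaagact
Actl6a main (chr3:32726940-32726969, plus strand): acaaaactaAATAAAaatcactactgtcct
Dpf2 main (chr19:5897385-5897414, minus strand): attagtaaaAATAAAcatttttacagagtc
Brd9 main (chr13:73960788-73960817, plus strand): ataaatgaagtCATAAAatgtttcaatgtt
AATAAA lay within 40 bases upstream of the main site in 7 of the 10 genes, beside 65.6% of 7921 genes with a level of at least 10 RPM. The other 3 genes showed variants: TATAAA in Smarcc2, AATGAA in Smarce1 and CATAAA in Brd9. In Brd9, CATAAA is the variant nearest to the site, and AATGAA and TATAAA also lay within 40 bases upstream. All of these windows lie in the 3′ UTR of the terminal exon, except that the window of Arid1a runs past its annotated end.

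Levels are given in RPM, the reads at the sites of a gene scaled to 1000000 reads of the library. The method is meant to give 1 tag per mRNA, at its 3′ end, and RPM of different genes were compared on that basis with no length scaling. Reads at internal exon sites, described below, may not meet it. Depth was 11085428, 14855484 and 14064461 reads in the RPM denominators of replicates 1, 2 and 3. Replicate 3 had 216 reads outside the autosomes, against 821582 and 1012989, and its autosomal reads made up 92.7% of the denominator, against 84.1% and 84.1%. The same share of autosomal reads thus gives a higher RPM there. Of the members, 6 of 10 had their highest level in that library, on the RPM scale as on a scale of autosomal reads. The share over all genes was not counted, so no trait of the members is read from this. The stem cell state of the line was checked on markers: 6 of 6 ES cell genes exceeded 10 RPM (means of 20.99 to 724 RPM). The means of 3 of 3 endoderm markers were under 1 RPM, with a highest single value of 1.75 RPM for Sox17 in replicate 2. Of 6 fibroblast markers, 2 exceeded 10 RPM (Thy1 and Vim), Postn was at 0, and the summed level ranged from 128 to 223 RPM over the libraries. Of 4 neuronal markers, Tubb3 and Map2 exceeded 10 RPM, with means of 36.3 and 54.8 RPM. The others, Actl6b and Dpf3, had means of 1.06 and 0.829 RPM and are also counterparts of members below. The list of neuronal markers summed to between 60.1 and 147 RPM. The part of these cells in the values below was not tested.

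All 10 members were detected in every library, over a 37.9-fold range of mean levels. In such bulk RNA, fewer cells with a transcript and less of it per cell cannot be told apart. Their median level was 50.2 RPM, beside 39.1 RPM in 8128 genes with at least 10 RPM. With each site assigned to 1 gene, 7921 of these genes kept a site. Spread between libraries, as the SD in percent of the mean, had a median of 15.8%, beside 17.3% in the 8128 genes.

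Smarca4 (chr9:21616169-21704230) encodes the ATPase of esBAF, also called BRG1. A site of it with 19 reads also lies in the window of the gene Gm27373. Its level was 138, 155 and 171 RPM in replicates 1, 2 and 3, or 155 ± 16.3 RPM (SD, n = 3). Smarca2, which encodes the alternative ATPase BRM, stood at 39.8, 23.8 and 62.9 RPM. Each library of Smarca4 lay above each of Smarca2, and the ratio of the means was 3.67. Within libraries the log2 ratio, on log2(RPM + 0.1), was 1.98 ± 0.65 (SD, n = 3).

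The scaffold paralogs Smarcc1 and Smarcc2 differed in level. Smarcc1 (chr9:110117708-110240178) encodes BAF155, a scaffold on which the complex assembles, and read 310, 317 and 409 RPM, or 345 ± 55.0 RPM (SD, n = 3). Its paralog Smarcc2 (chr10:128459248-128490482), which encodes BAF170, read 21.4, 23.2 and 34.1 RPM, or 26.2 ± 6.86 RPM (SD, n = 3). The groups did not overlap, and the ratio of the means was 13.2. The log2 ratio within libraries was 3.73 ± 0.14 (SD, n = 3), and it ran from 3.58 to 3.85 although both genes were highest in replicate 3.

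Smarcb1 (chr10:75896769-75921617) encodes BAF47, which anchors the complex to the nucleosome and is lost in rhabdoid tumours. It read 172, 198 and 135 RPM, with a mean of 168 ± 31.7 RPM (SD, n = 3), and replicate 3 was the lowest. Smarce1 (chr11:99209047-99231017), which encodes the HMG-box subunit BAF57, read 27.5, 29.3 and 33.1 RPM, or 29.95 ± 2.83 RPM (SD, n = 3). A pseudogene, Smarce1-ps1, read between 0.451 and 2.15 RPM. How reads with several matches were treated is not given in the sources used here, so the level of Smarce1 is uncertain by what the copies share.

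Smarcd1 (chr15:99702129-99713991) encodes BAF60A, a subunit that links the complex to transcription factors. It read 34.4, 41.3 and 40.2 RPM, or 38.6 ± 3.71 RPM (SD, n = 3). The paralog Smarcd2 was higher in each library, at 136, 165 and 141 RPM. The mean of Smarcd2 was 3.81 times that of Smarcd1, with a log2 ratio of Smarcd1 over Smarcd2 of -1.93 ± 0.11 (SD, n = 3). Smarcd3, known from heart and neuronal BAF, read 18.4, 15.01 and 19.3 RPM, below each library of Smarcd1. Smarcd1 over Smarcd3 gave a ratio of means of 2.20.

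Arid1a (chr4:133679008-133756769) encodes BAF250A, the large DNA-binding subunit of canonical BAF, and was the lowest of the 10 genes. It read 14.97, 10.7 and 18.8 RPM, or 14.8 ± 4.04 RPM (SD, n = 3), from 589 reads in all. Its paralog Arid1b read 22.3, 11.3 and 10.5 RPM and overlapped with it: Arid1b was higher in 2 libraries and Arid1a in replicate 3. The log2 ratio was 0.06 ± 0.71 (SD, n = 3), with an exact sign-flip p of 1.0, and without replicate 3 it was -0.32. Arid2, the PBAF counterpart, read 35.7, 37.3 and 38.7 RPM, above each library of Arid1a, and its mean was 2.51 times as high.

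Actl6a (chr3:32706298-32726973), which encodes the actin-related subunit BAF53A of stem and progenitor cells, was the highest of the 10 genes. It read 597, 539 and 549 RPM, or 562 ± 30.9 RPM (SD, n = 3), above 98.4% of the 13733 genes with at least 1 RPM. Actl6b, its counterpart in neurons, had 2, 13 and 30 reads, or 0.180, 0.875 and 2.13 RPM. The ratio of the means was 529, and the log2 ratio ran from 11.06 in replicate 1 to 7.94 in replicate 3. The denominator rests on few reads, so the size of that ratio is imprecise: it was 1076 without replicate 3 and 362 without replicate 1.

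Dpf2 (chr19:5896516-5913010) encodes BAF45D, whose PHD fingers read modified histone tails. It read 51.1, 70.0 and 64.2 RPM, or 61.8 ± 9.71 RPM (SD, n = 3). Dpf1 read 50.7, 30.6 and 34.9 RPM, so that in replicate 1 the genes were nearly equal (log2 ratio 0.01), while Dpf2 was higher in replicates 2 and 3 (1.19 and 0.88). Dpf3 had 23, 4 and 2 reads, and Dpf2 exceeded it 74.5-fold in the means. This fold is imprecise, since replicate 1 holds most of the Dpf3 reads: it was 326 without that library and 51.6 without replicate 3. Phf10, the PBAF member of the family, stood at 157, 178 and 158 RPM, and its mean was 2.66 times that of Dpf2.

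Brd9 (chr13:73937811-73960895) encodes the bromodomain subunit that marks non-canonical BAF. It read 18.1, 22.1 and 26.1 RPM, or 22.1 ± 3.98 RPM (SD, n = 3). Brd7, its PBAF counterpart, read 81.3, 65.1 and 76.0 RPM, above each library of Brd9, with a mean 3.35 times as high. Without sites followed by A-rich sequence in the genome, as defined below, the log2 ratio of Brd9 over Brd7 was -1.25 instead of -1.75.

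**Figure D1:**
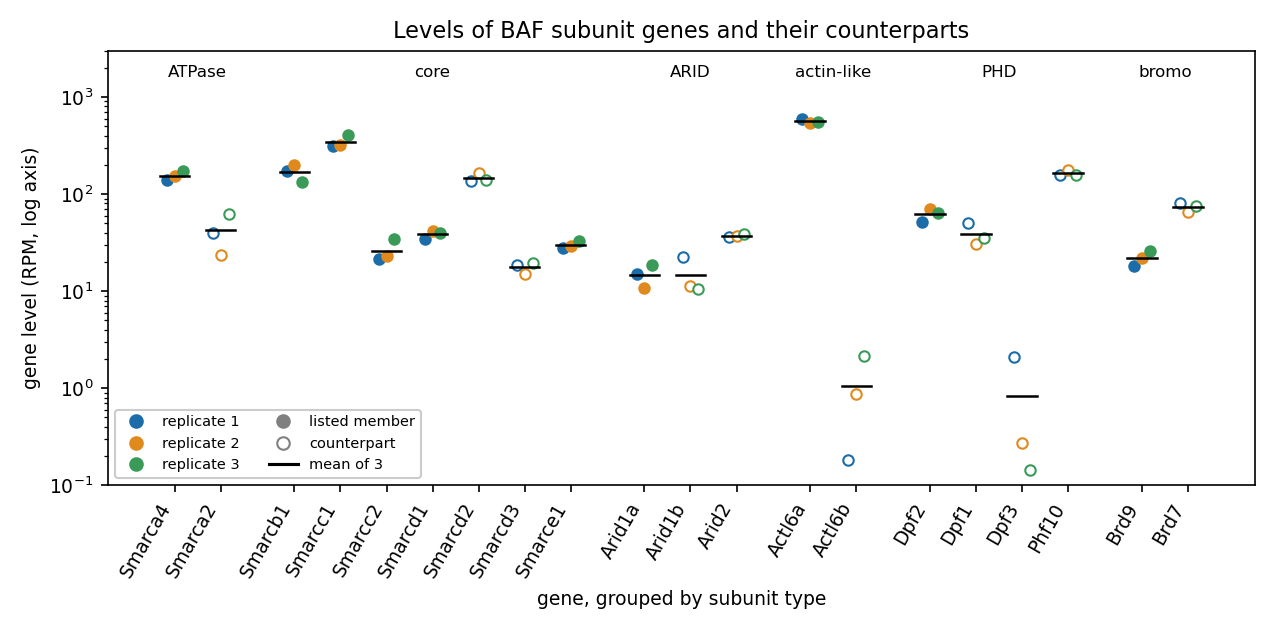
Level of each member (filled) and its family counterparts (open) in RPM on a log axis; points are the 3 libraries and the bar is their mean. Actl6a and Smarcc1 lie highest, Actl6b and Dpf3 lie near 1 RPM, and Smarcd2, Arid2, Phf10 and Brd7 lie above the member of their family.

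The 11 ratios with family counterparts went in both directions. The member was the higher gene in every library for 6 of 11, the counterpart in every library for 4, and Arid1a against Arid1b was mixed. An exact two-sided sign-flip test over 3 libraries cannot give a p below 0.25. That value was reached by the 10 ratios with a constant direction (Benjamini-Hochberg adjusted p = 0.275 over 11 ratios, exact test), so none could pass. In the order of means, Smarcb1 and Smarca4 overlapped, as did Smarce1 and Smarcc2, Smarcc2 and Brd9, and Brd9 and Arid1a. Neighbouring genes elsewhere in the order did not overlap. With levels scaled to autosomal reads, Brd9 and Arid1a also ceased to overlap.

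Of 21 other subunit genes of BAF, PBAF and non-canonical BAF, 13 reached 10 RPM and 20 reached 1 RPM, with a median of 20.3 RPM. Actb, the actin that the complexes share with the cytoskeleton, stood at 2299 ± 194 RPM (SD, n = 3).

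Reads of the 10 genes ended mostly in terminal exons. These held 93.0% ± 0.689 of the reads (SD, n = 3), beside 95.3% in all genes with at least 10 RPM. Introns held 1.32% ± 0.546, beside 1.31%. Other exons held 5.51% ± 0.235, beside 2.54%. AATAAA preceded 86.0% ± 0.235 of the reads (SD, n = 3), beside 62.5% over the same genes. Pooled shares weigh Actl6a most, with 22349 of the 57048 reads. The median gene had AATAAA at 81.5% of its reads among the members and at 82.3% among all these genes.

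Sites read in 1 library made up about the same share of the sites of the members as of other genes. The median number of sites per gene was 10 among the members, beside 7 in all genes with at least 10 RPM. Of the 126 sites, 66 (52.4%) had reads in 1 library and 40 (31.7%) in all 3. Over the sites of all genes with at least 10 RPM these shares were 53.4% and 30.4%. Of the 126, 105 held under 5% of the reads of their gene, a share that was not counted over all genes. The 40 shared sites carried 98.2% ± 0.662 of the reads (SD, n = 3), beside 98.4%. A lone site of at least 5% was found in 2 of 10 members, beside 45.8% of 7921 genes. These were Actl6a, with 99.8%, 99.4% and 99.8% of reads at its main site, and Dpf2, with 99.8%, 99.7% and 99.6%. Smarca4 and Smarcd1 each had 1 terminal exon site of at least 5%, and their other site of that size lay in an internal exon.

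**Figure D2:**
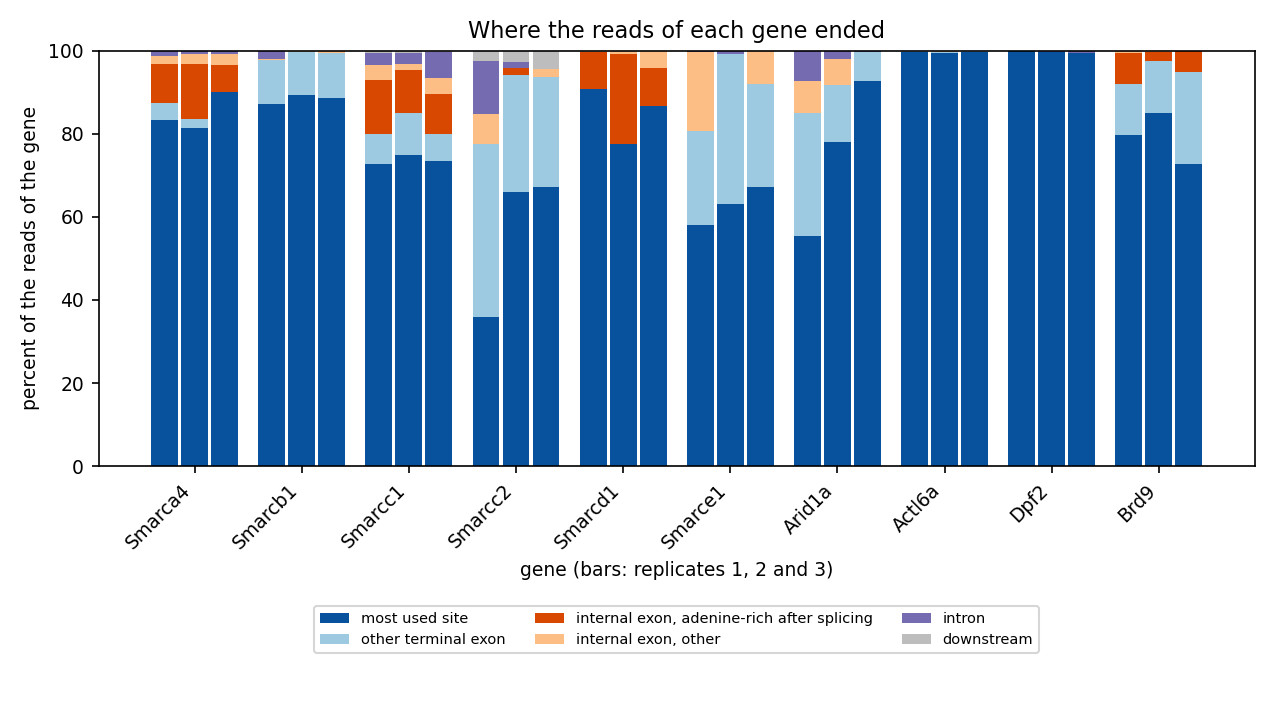
Percent of the reads of each member at its most used site and in each other class of site, as stacked bars for replicates 1, 2 and 3. Actl6a and Dpf2 are nearly filled by their main site, and the main site of Smarcc2 takes 35.9% in replicate 1 and 66.0% and 67.2% in the others.

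The 3′ UTR kept by the main site ranged from 53 bases in Smarce1 to 2258 bases in Smarcc1, with a median of 824.5 bases. Over 7325 protein-coding genes with at least 10 RPM the median was 613 bases, with quartiles of 256 and 1366. Annotated UTRs are counted here and below where the stop codon and the end lie in 1 exon. In 6 genes (Smarcb1, Smarcc1, Smarcc2, Smarcd1, Arid1a and Actl6a) the main site lay within 7 bases of the end of the longest such UTR. Brd9 stopped 78 bases short of it. Smarcc2 has a further annotated transcript end, at chr10:128490482, which had 0 reads within 50 bases.

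Smarca4, Dpf2 and Smarce1 ended well before the longest annotated UTR. In Smarca4 the main site coincided with the end of the shortest annotated UTR, 398 bases after the stop codon, and took 83.2%, 81.3% and 90.0% of reads. The annotated ends that give up to 1262 bases had 21 reads in all, or 0.384%. In Dpf2 the main site gave 1170 bases, and no reads were listed at the annotated end that would give 2039 bases.

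**Figure D3:**
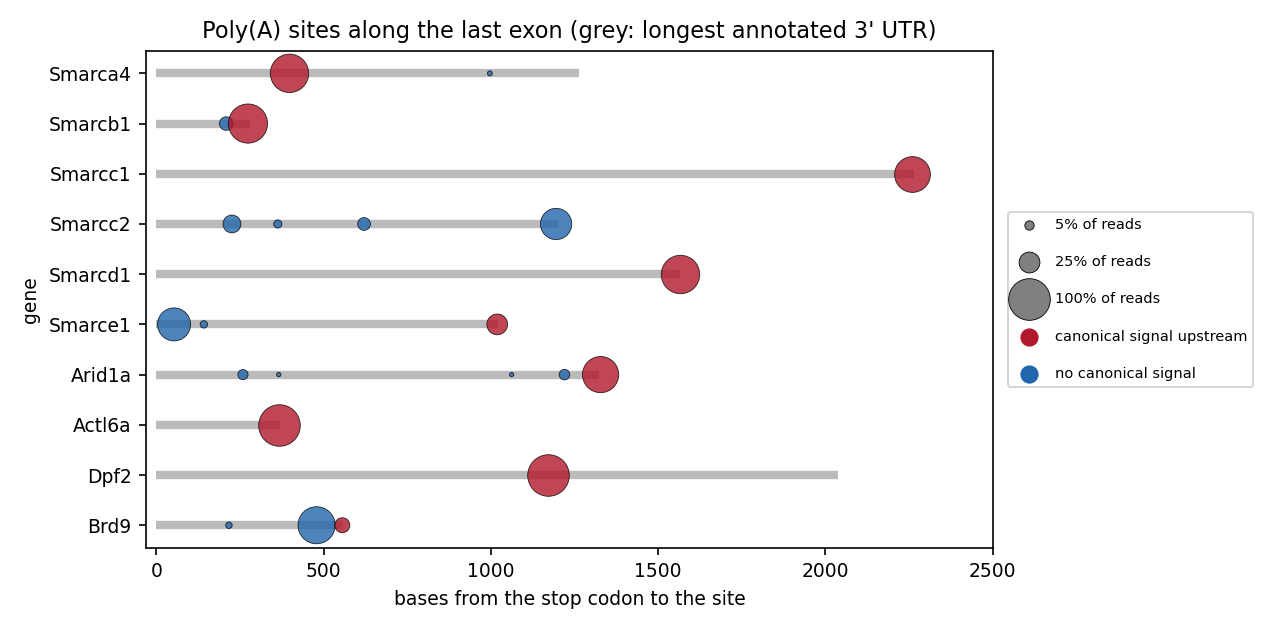
Sites with at least 1% of the reads of the gene in the exon of the main site, placed by their distance from the stop codon in bases; circle area is the mean percent of reads over 3 libraries, red marks AATAAA within 40 bases upstream, and the grey bar is the longest annotated 3′ UTR. The main sites lie between 53 bases in Smarce1 and 2258 bases in Smarcc1.

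Tandem sites, a proximal and a distal site in the same last exon, could be tested in 5 of the 10 members. The pair was the outermost sites with at least 5% of the reads of a gene with at least 50 reads. The distal share of the reads of the pair was measured in each library, and the log2 ratio of RPM + 0.05 was tested with limma over 5018 genes. A call needed a ratio of 2-fold or more with a Benjamini-Hochberg adjusted p below 0.05.

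The distal site was called higher in Smarcb1, Smarcc2 and Arid1a, and the proximal site in Smarce1 and Brd9. Over all genes tested, 30.4% were called distal, 13.3% proximal and 43.6% either way, with a median log2 ratio of 1.23.

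Smarcb1 had the steadiest pair. The distal site, 274 bases after the stop codon, took 89.2%, 89.6% and 89.2% of the pair and lay 65 bases past the proximal one. Its log2 ratio was 3.06 (SE 0.21, limma adjusted p = 4.94e-08). AATAAA stands 19 bases before the distal site, as shown in its sequence above, and no AATAAA or ATTAAA lay within 40 bases of the proximal site.
Smarcb1 proximal (chr10:75896840-75896869, minus strand): gagtcggaagcagcctcattttgggttgtg

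Brd9 favoured the proximal site of a close pair. The distal share was 13.5%, 11.1% and 17.8%, or 14.2% ± 3.41 (SD, n = 3), over sites 77 bases apart. The log2 ratio of distal over proximal was -2.60 (SE 0.55, limma adjusted p = 0.0013). Here the little used distal site is the one with AATAAA, which starts 30 bases before it, while the proximal site has CATAAA. With sites down to 1% of reads the pair began at a rarer site, and the ratio reversed to 3.15 (limma adjusted p = 0.113, not called).
Brd9 distal (chr13:73960865-73960894, plus strand): AATAAAgagatgcctaaggcggtaactctg

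Smarce1 also ended mainly at its proximal site, 53 bases after the stop codon, which left it the shortest UTR of the 10 genes. The reads there were 177, 274 and 312 in replicates 1, 2 and 3, against 61, 128 and 116 at the distal site, 966 bases on. The distal share was thus 25.6%, 31.8% and 27.1%, below 50% in each library, with a log2 ratio of -1.35 (SE 0.40, limma adjusted p = 0.0127). The distal site matches the only annotated end of the coding mRNA and follows AATAAA. The proximal site matches none, and a run of 9 A in the genome ends 4 bases before it. The part of this run in the reads was not tested.
Smarce1 distal (chr11:99209050-99209079, minus strand): aaggtccaaacatAATAAAgaaattaagac

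Smarcc2 spread over 3 sites of at least 5%, at 226, 621 and 1195 bases after the stop codon. The share of the distal site in the outer pair, 969 bases apart, was 60.3%, 87.3% and 75.2%, or 74.3% ± 13.5 (SD, n = 3). It was the majority in each library but varied widely, with a log2 ratio of 1.65 (SE 0.55, limma adjusted p = 0.0256). None of the 3 sites has AATAAA or ATTAAA: the outer ones show ACTAAA and TATAAA, and the middle one, with 9.43% ± 5.54 of reads (SD, n = 3), has no hexamer in the deposited list.
Smarcc2 proximal (chr10:128489169-128489198, plus strand): tctgACTAAAagatgtttctaatgcctggg
Smarcc2 middle (chr10:128489564-128489593, plus strand): cagttcagccaatgaccttttcctccagtc

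In Arid1a the distal site took 76.7%, 99.2% and 99.6% of the outer pair. The log2 ratio was 5.01 (SE 1.43, limma adjusted p = 0.0109). The proximal site had 28, 1 and 1 reads, so it reached the minimum of 5% through replicate 1. The size of the ratio is imprecise: it was 6.67 without replicate 1 and 3.93 without replicate 3, 3.49 with a pseudocount of 0.5 RPM and 3.46 between the most used pair of sites. The main site lies 5 bases past the annotated end. Another site, 108 bases before it, held 6.42% ± 0.993 of reads (SD, n = 3), with little spread between libraries.

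The calls of Smarcb1 and Brd9 held when any library was left out. Those of Smarcc2, Smarce1 and Arid1a were lost without replicate 2 (limma adjusted p = 0.216, 0.0631 and 0.0996) and without replicate 3 (0.108, 0.0512 and 0.0678), with the same direction. With edgeR on recovered reads, Smarcc2 and Smarce1 also missed the threshold (adjusted p = 0.0757 and 0.0516). Among the 5 members tested, AATAAA preceded the proximal site in 0 and the distal site in 4, beside 31.3% of proximal and 60.4% of distal sites over the 5018 genes. With 5 genes, no difference from the other genes is read from this.

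**Figure D4:**
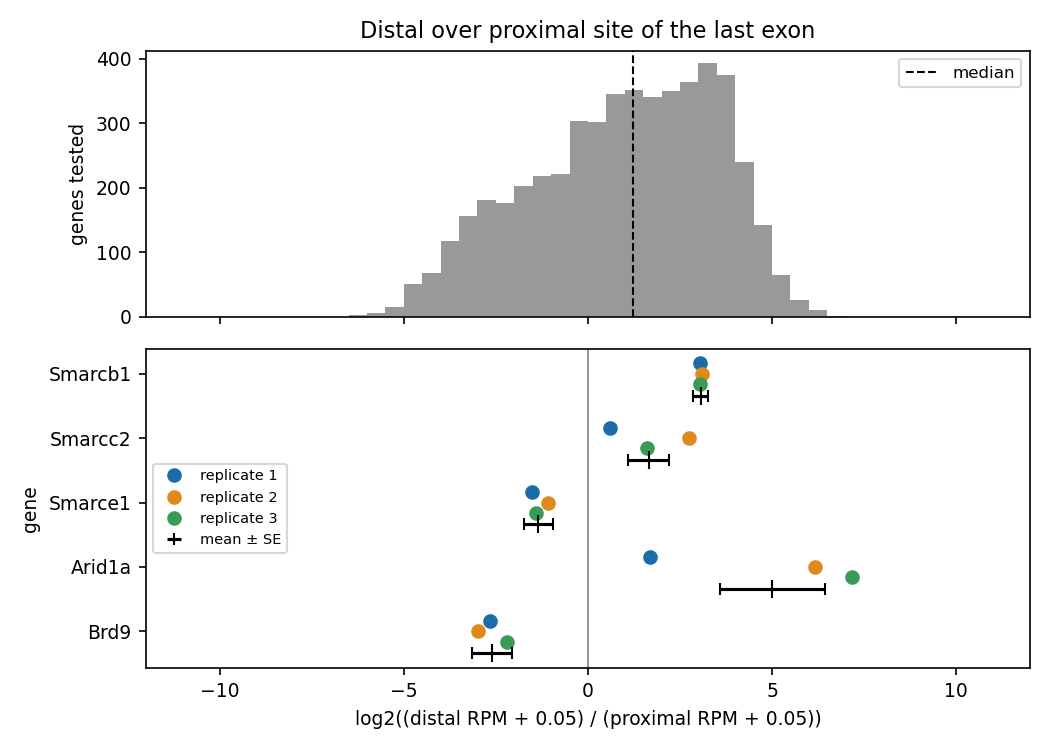
Log2 ratio of distal over proximal RPM for the 5018 genes tested (top, number of genes per bin, dashed line at the median of 1.23) and for the 5 members tested (bottom, 1 point per library, with the limma mean ± SE below). Smarcb1, Smarcc2 and Arid1a lie above 0 in 3 of 3 libraries, and Smarce1 and Brd9 below 0 in 3 of 3.

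Of the 21 other subunit genes, 7 could be tested and 2 were called, beside 43.6% of the 5018 genes. Among those not called, Bicra in replicate 3 and Bcl11b in replicate 1 had no reads at either site. Bcl7b, a small BAF subunit, was called distal (log2 ratio 3.92, limma adjusted p = 0.00167). Smarca2 was called proximal over a pair 48 bases apart (log2 ratio -3.82, limma adjusted p = 0.000291).

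Smarcc1 had a second last exon in use. The site at its end, 224 bases after the stop codon of that form, follows ATTAAA and took 6.37%, 6.39% and 4.75% of the reads of the gene. The main site took 72.8%, 74.9% and 73.6%. Introns of Smarcc1 held 4.01% ± 2.05 of its reads (SD, n = 3) over 14 sites. The most used of these follows AATAAA and had 2.27%, 2.29% and 3.91% of the reads. A run of 8 A in the genome ends at this site, and its part in the reads was not tested.
Smarcc1 alternative last exon (chr9:110235256-110235285, plus strand): tcatgATTAAAcctgactagtttgaatctc

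Internal exons of 3 members each held a site with at least 5% of the reads. In Smarcc1, exon 23 of 28 had 400, 477 and 549 reads at such a site, or 11.6%, 10.1% and 9.55% of the gene. In Smarcd1, exon 2 of 13 had 34, 132 and 52 reads, or 8.92%, 21.5% and 9.20%, with replicate 2 the highest. In Smarca4, exon 10 of 34 had 145, 304 and 159 reads, or 9.45%, 13.2% and 6.61%. No AATAAA or ATTAAA was found within 40 bases upstream of any of the 3.

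What follows these sites differs between the genome and the spliced mRNA. The sites of Smarcc1 and Smarcd1 lie 2 bases before the end of their exon, so that the next bases of the mRNA come mostly from the following exon. The 20 bases after each site are given with A in capitals, since a stretch was counted as A-rich from 12 A, or a run of 6 A, in this window.
Smarcc1 exon 23 site (chr9:110204325-110204344, plus strand), genome: AggtgActtgggcccgAgcA
Smarcc1 exon 23 site, spliced: AgAAgAAAAggAgAAtgAAg
Smarcd1 exon 2 site (chr15:99703292-99703311, plus strand), genome: AAgtAAgAtgAcccctgggg
Smarcd1 exon 2 site, spliced: AAtgcAAAgAAAAAgAAgAt
Smarca4 exon 10 site (chr9:21642563-21642582, plus strand), genome and spliced: AAggAgAAgAAgAAgAAAAA
In Smarcc1 the window held 4 A in the genome and 12 A in the mRNA. In Smarcd1 it held 6 A and 13 A. The site of Smarca4 lies 30 bases before the end of its exon, and its window held 14 A either way.

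A smaller site in exon 2 of 16 of Brd9, with 4.56% of reads, lies 3 bases before the exon end and went from 7 A to 12 A. Over the members, 32 internal exon sites could be placed on a coding transcript with a following exon. Of these, 9 (28.1%) were A-rich in the spliced sequence, beside 28.3% of 9495 such sites in all protein-coding genes. By reads, the spliced sequence was A-rich for 78.0% and the genome for 22.3%, beside 48.0% and 34.6% in all these genes. The reads of the members were concentrated in few sites: the site in exon 23 of Smarcc1 held 1426 of their 3021 reads. A window read from the genome alone thus leaves the sites of Smarcc1, Smarcd1 and Brd9 outside the A-rich class. Whether these reads mark cleaved ends or priming inside the mRNA was not tested.

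**Figure D5:**
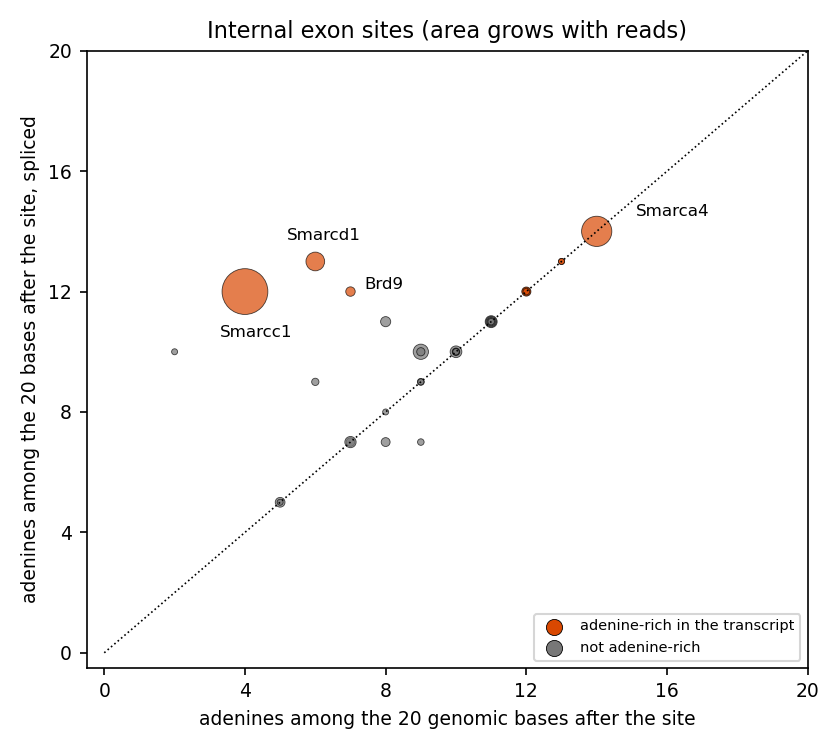
Number of adenines in the 20 bases after each internal exon site of the members, in the genome (x axis) and in the spliced transcript (y axis); circle area grows with reads, orange marks sites A-rich in the transcript and the dotted line marks equal numbers. The most read sites of Smarcc1, Smarcd1 and Brd9 lie above the line, and that of Smarca4 lies on it.

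Leaving out the internal exon sites that are A-rich in the spliced sequence lowered the level of Smarcd1 from 38.6 to 33.4 RPM. Smarcc1 fell from 345 to 308 RPM and Smarca4 from 155 to 140 RPM, each by less than its SD between libraries. The AATAAA share of the members rose from 86.0% to 89.7%. No direction of the paralog ratios changed, but the log2 ratio of Brd9 over Brd7 went from -1.75 to -1.37.

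The main site also fixes which microRNA matches an mRNA keeps. miR-9-3p, known as miR-9*, and miR-124 repress Actl6a in developing neurons, miR-291a-3p belongs to the ES cell miR-290 cluster, and let-7 rises on differentiation. The mature sequences from RefSeq (GRCm38) are given with the seed, bases 2 to 8, in capitals. Sequences of mmu-miR-124-3p and mmu-miR-302a-3p were not used here.
mmu-miR-9-3p: aUAAAGCUagauaaccgaaagu
mmu-miR-291a-3p: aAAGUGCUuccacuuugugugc
mmu-let-7a-5p: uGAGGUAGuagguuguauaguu
The matches searched, on the mRNA strand only, from the stop codon to the end of the longest annotated UTR or the most distal site, whichever came later, were AGCTTTA for miR-9-3p, AGCACTT for miR-291a-3p and CTACCTC for let-7a-5p. A match is a description of the letters and no evidence of binding.

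Actl6a holds AGCTTTA at bases 38 to 44 after its stop codon, before the site that ends nearly all of its reads. Among 4734 genes with a UTR at least this long, 2.87% hold the match in their first 367 bases. Smarce1 holds the same match at bases 313 to 319, past its main site, so that 27.2% ± 2.42 of its terminal exon reads (SD, n = 3) keep it. Both are shown with their surroundings, the match in capitals.
Actl6a (chr3:32726628-32726657, plus strand): ctcaacgtctgtAGCTTTAgtacactcagg
Smarce1 (chr11:99209739-99209768, minus strand): caccaaagccatAGCTTTAaacccttccag
Smarcc1 holds AGCTTTA at bases 700 to 706 and 1528 to 1534, CTACCTC at 1056 to 1062 and AGCACTT at 1806 to 1812, and its main site lies past all 4. In UTRs of that length the matches are common, at 19.6%, 12.7% and 26.0% of 923 genes. Smarcc2 holds AGCACTT at bases 839 to 845, between its middle and its distal site, and 63.1% ± 14.7 of its terminal exon reads (SD, n = 3) extend past it. Smarcd1 holds CTACCTC at bases 256 to 262 and Dpf2 at 810 to 816, both before the main site. Smarca4, Smarcb1, Arid1a and Brd9 held none of the 3 matches in the stretch searched.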

How the data were processed

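Poly(A) sites of 3 F121-9 PAS-seq (QuantSeq) libraries were used as deposited, made from mm10 alignments and GENCODE M21 according to deposited text files. Aligner, site caller and treatment of reads with several matches: not given in the sources used here. Deposited site values are RPM, the reads scaled to 1000000 reads of a library. Whole reads were recovered from it (100% of values whole within 0.01 reads).

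Sites were assigned to terminal exon, other exon, intron or downstream from the annotation, and signals were searched 40 bases upstream in GRCm38. Of 188866 deposited hexamers, 188866 were found in GRCm38 at their deposited positions, some of which lie more than 40 bases upstream. Paralog ratios used log2(RPM + 0.1) and an exact two-sided sign-flip test. Tandem sites used limma 3.58.1 on within-library log2 ratios (RPM + 0.05), with Benjamini-Hochberg adjustment over 5018 genes, and edgeR 4.0.16 on recovered reads as an alternative. The tandem test was run on simulated data, with a read variance of 15 times the mean. It called 41 of 100 true 4-fold ratios and 73 of 100 true 16-fold ratios in the right direction. Of 4818 genes simulated with a ratio of 1, 2 were called. A gene that is not called may thus still differ. Comparisons used the 19 autosomes. All members, paralogs, sites of at least 5%, called subunit genes and 5 microRNAs were to be named. Members and lists were chosen with earlier results of these data known. Counting error alone is not the error given: reads carry no molecular identifiers that the sources name.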

Additional observations from a re-analysis of the deposited data

How the results depend on the processing

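Depth limits the genes with few reads: Arid1a had 589 reads and Brd9 897 over 3 libraries, and Actl6b and Dpf3 under 50 each. Scaling RPM to autosomal reads moved the median member level from 50.2 to 57.7 RPM. The AATAAA share of member reads was 87.3% without sites A-rich in the genome and 89.7% without those A-rich in the spliced sequence, an alternative added after seeing the data. Over all genes, 801 were called distal and 442 proximal at a site minimum of 10% (3745 genes tested), and 3263 distal at 1% (7101 tested), where other pairs of sites enter. Brd9 reversed at 1%, with a log2 ratio of 3.15 (limma adjusted p = 0.113, not called), since a rarer site nearer the stop codon became its proximal site. With pairs at least 100 bases apart, those of Smarcb1 and Brd9, 65 and 77 bases apart, were not tested. Of the 3 members left, 2 were called distal and 1 proximal, beside 1259 distal and 576 proximal of 4346 genes. With edgeR on recovered reads, 2 of 5 members were called distal and 1 proximal, beside 1294 distal and 562 proximal of 5018 genes. Smarce1 (edgeR adjusted p = 0.0516) lost its call there, as did Smarcc2 (0.0757), and the cause was not tested. Leaving out a library gave 980 to 1324 distal and 474 to 595 proximal calls over all genes, 1 to 3 distal and 1 to 2 proximal among members. Arid1a over Arid1b gave log2 ratios of -0.32 to 0.38 in this way, reversed without replicate 3, and the other 10 paralog ratios kept their direction under every alternative run. The tested ratio is taken within a library, which pairs the sites by replicate. Without this replicate block 1695 genes were called distal and 723 proximal, and among members 3 and 2.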
